A study of Mus musculus with 2 samples.

Results

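The transcripts examined here encode the calcium-activated phosphatase calcineurin, its inhibitor Rcan1 and the NFAT family of transcription factors, 9 genes of the 28095 gene names on the array. They were chosen by name: every spot for a transcript whose gene name in both array files was Nfat5, Nfatc1, Nfatc2, Nfatc3, Nfatc4, Ppp3ca, Ppp3cb, Ppp3r1 or Rcan1 was taken. This gave 28 probes, each printed as 1 spot, for 21 accessions, of which 12 were RefSeq coding accessions (prefix NM) and 9 were GenBank cDNA clones (prefix AK). None of the 28 spots was flagged as an outlier and none was saturated.

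RNA from NIH3T3 cells, an established line of mouse embryonic fibroblasts, was separated on sucrose gradients into polysomes (P, messages carrying several ribosomes) and free RNA plus monosomes (FM). In the control condition the cells received no thapsigargin, and in the stress condition they were treated with 10 µM thapsigargin for 3 h. Each condition was measured on 1 two-colour Agilent array of 60-base probes, with P labelled in Cy3 and FM in Cy5, and the RNA on each array was a pool of 3 preparations. With 1 array per condition there is no replicate error for any value below, so no test was possible and no p-value is given.

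Calcineurin is a serine/threonine phosphatase made of a catalytic A subunit (such as Ppp3ca or Ppp3cb) and a calcium-binding B subunit (Ppp3r1), and it is switched on by calcium and calmodulin. Its best known substrates are Nfatc1, Nfatc2, Nfatc3 and Nfatc4, which stay phosphorylated in the cytoplasm of resting cells and enter the nucleus to bind DNA once calcineurin has removed those phosphates. Nfat5 shares their Rel-type DNA-binding domain but not the calcineurin-binding region, and is known as the factor that turns on osmolyte transport genes in hypertonic medium. Rcan1 binds calcineurin and inhibits it, and a short form of Rcan1 is itself transcribed from an internal promoter that NFAT proteins bind. Thapsigargin blocks the pump that fills the endoplasmic reticulum with calcium, so that stores empty, cytosolic calcium rises and the unfolded protein response starts, in which phosphorylation of eIF2α lowers translation initiation.

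A few of the probes are shown because they place the measurement inside the protein-coding part of the message. Each is written 5′ to 3′ in the sense of the transcript, and capitals mark the complete codons of the only reading frame without a stop codon. The Nfat5 probe (mm9 chr8:109875407-109875466, plus strand) and the Nfatc2 probe (mm9 chr2:168361757-168361816, minus strand) lie in the Rel-type DNA-binding domain that the family shares, and the first Ppp3r1 probe (mm9 chr11:17093001-17093060, plus strand) holds, in codons 3 to 14 of its frame, the 12-residue pattern of an EF-hand calcium-binding loop, which has acidic or polar residues where calcium is held and a glycine between them. The second Ppp3r1 probe (mm9 chr11:17094237-17094688, plus strand) spreads its 60 bases over 452 bases of genome, so it crosses an exon junction.
Nfat5 A_52_P254316: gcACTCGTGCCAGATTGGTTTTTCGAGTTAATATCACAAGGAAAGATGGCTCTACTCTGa
Nfatc2 A_52_P628171: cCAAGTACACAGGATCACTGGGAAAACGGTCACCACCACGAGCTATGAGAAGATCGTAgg
Ppp3r1 A_52_P90442: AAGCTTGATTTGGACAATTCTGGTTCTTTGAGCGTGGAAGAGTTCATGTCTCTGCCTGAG
Ppp3r1 A_52_P90444: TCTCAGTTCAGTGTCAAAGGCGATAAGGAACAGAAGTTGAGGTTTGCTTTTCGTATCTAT

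Several features of the 2 arrays bear on every value. The study's methods state that P held more total RNA than FM in control cells and FM more than P in stress. These proportions were kept for labelling, so the input of P relative to FM differed between the arrays by design. Centring, loess and dye normalization, given below as alternatives, take out an array-wide difference of this kind in whole or in part. Both arrays lay on 1 slide and had the same scan time. In each channel 42.5% to 46.3% of the spots for transcripts were well above background, by the flag of the scanner software. The mean background-subtracted signal of P went from 635 in control to 463 in stress, and that of FM from 948 to 1397. The 10 probes for Agilent's spike-in control RNAs gave log2 P/FM values whose median was -0.40 in control cells and -2.95 in stress. Whether spike-in RNA was added in equal amounts is not given in the sources used here, and the values below are not scaled to these probes. Scaling to them would add 2.55 to every change in log2 P/FM, for all transcripts alike, and would make positive any decrease smaller than that, so changes are also given relative to the median of all. The cells had the marker transcripts of fibroblasts: all 9 listed markers were on the array and 7, the same number in both conditions, had P and FM well above background. Of 4 leukocyte markers 2 had both channels well above background, at A between 2.76 and 6.06 over the 4 in control, and of the epithelial, endothelial and skeletal muscle markers, 2 of each, none had.

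Translation efficiency is given as log2 P/FM, the log2 of the P over the FM signal after background subtraction, and abundance as A, for which the log2 signals of both channels were averaged. A transcript was kept for counts if A was above 4.5 in both conditions, and 10033 coding accessions were. Over these, log2 P/FM had a median of 0.34 in control and -0.29 in stress, the median change (stress minus control) was -0.71, and 90% of the changes lay between -2.56 and 1.495. A was higher in stress by 0.37 at the median. The spread between spots and between probes of the same array can be attached to a value, and neither is replicate error. For 111 probes printed as several spots the median SD between spots was 0.10 for log2 P/FM in control, 0.09 in stress and 0.10 for its change. Over 3412 accessions with 2 or more probes the median SD between probes was 0.29 for log2 P/FM in control, 0.28 in stress, 0.32 for its change and 0.18 for the change in A. The 9 genes had 19 probes for coding accessions, called coding probes below wherever they lie in the transcript. Of these, 14 were well above background in both channels of both arrays, and 10 of the 12 coding accessions passed the filter on A. Nfatc2, with 2 accessions, was the gene that did not.

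In growing cells the calcineurin and NFAT transcripts were spread over both sides of an even distribution. The order of log2 P/FM in control was Ppp3ca (1.15), Nfatc4 (0.91), Rcan1 (0.83), Ppp3r1 (0.76), Nfatc1 NM_016791 (0.69), Nfatc1 NM_198429 (0.06), Nfatc3 (-0.25), Nfat5 NM_018823 (-0.66), Nfat5 NM_133957 (-0.70) and Ppp3cb (-0.78). In both conditions the values of Rcan1 and Nfat5 NM_018823 include a probe with a signal not well above background. Neighbours among the first 5, and among the last 3, differed by less than the SD between probes of 0.29, which is not the SD of a difference. The steps from Nfatc1 NM_016791 to NM_198429, from there to Nfatc3, and from Nfatc3 to Nfat5 were larger than it. However, the SD between the probes of Nfatc3 was 0.36 and that of Nfat5 NM_018823 was 0.47. The step to Nfatc3 lay within the former, and the step from Nfatc3 to Nfat5 within the latter. Thus 2 catalytic subunits of the same enzyme were at the opposite ends of the list, Ppp3ca above and Ppp3cb below the median of all coding accessions. A further catalytic subunit, Ppp3cc, was not among the genes chosen and had 0.14, with a signal not well above background. Of the 10 accessions 4 were below 0, against 36.5% of all coding accessions.

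After 3 h of thapsigargin the order was different. Nfat5 NM_133957 was first at 2.48 and Ppp3cb last at -2.29, and the other 8 accessions lay between 0.63 and -0.06, in the order Nfat5 NM_018823 (0.63), Rcan1 (0.36), Nfatc1 NM_198429 (0.31), Nfatc1 NM_016791 (0.14), Ppp3ca (0.08), Nfatc3 (0.01), Ppp3r1 (-0.01) and Nfatc4 (-0.06). No 2 neighbours among these 8 differed by more than the SD between probes of 0.28. The median over the 10 accessions went from 0.38 to 0.11, and the median of their changes was -0.51.

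Read against all coding accessions, the counts were these. Log2 P/FM was lower in stress in 6 of the 10 accessions, against 70.7% of all. Among the 6, the value of Rcan1 includes a probe not well above background, and no bound could be given for it. A decrease of 0.8 or more, by which the study's paper calls a transcript stress-sensitive, was seen in 3 of 10 (Nfatc4, Ppp3ca and Ppp3cb), against 47.0% of all. Only Ppp3cb kept this call with normexp, the dye-normalized signals or log ratio of the scanner software, loess or centring, and none did with spike-in scaling. None was stress-resistant, that is at 0.8 or above in both conditions, against 3.00% of all. Both Nfat5 accessions, 2 of 10, were stress-inducible, that is at 0 or below in control and higher by 1 or more in stress, against 8.86% of all. A was higher by 1 or more in 2 of 10 (Rcan1 and Nfat5 NM_133957), against 11.7% of all, and lower by 1 or more in none, against 0.698% of all. With 10 accessions the shares of resistant and lower-A transcripts are too small to be read, and the accessions of 1 gene are not independent of each other.

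**Figure D1:**
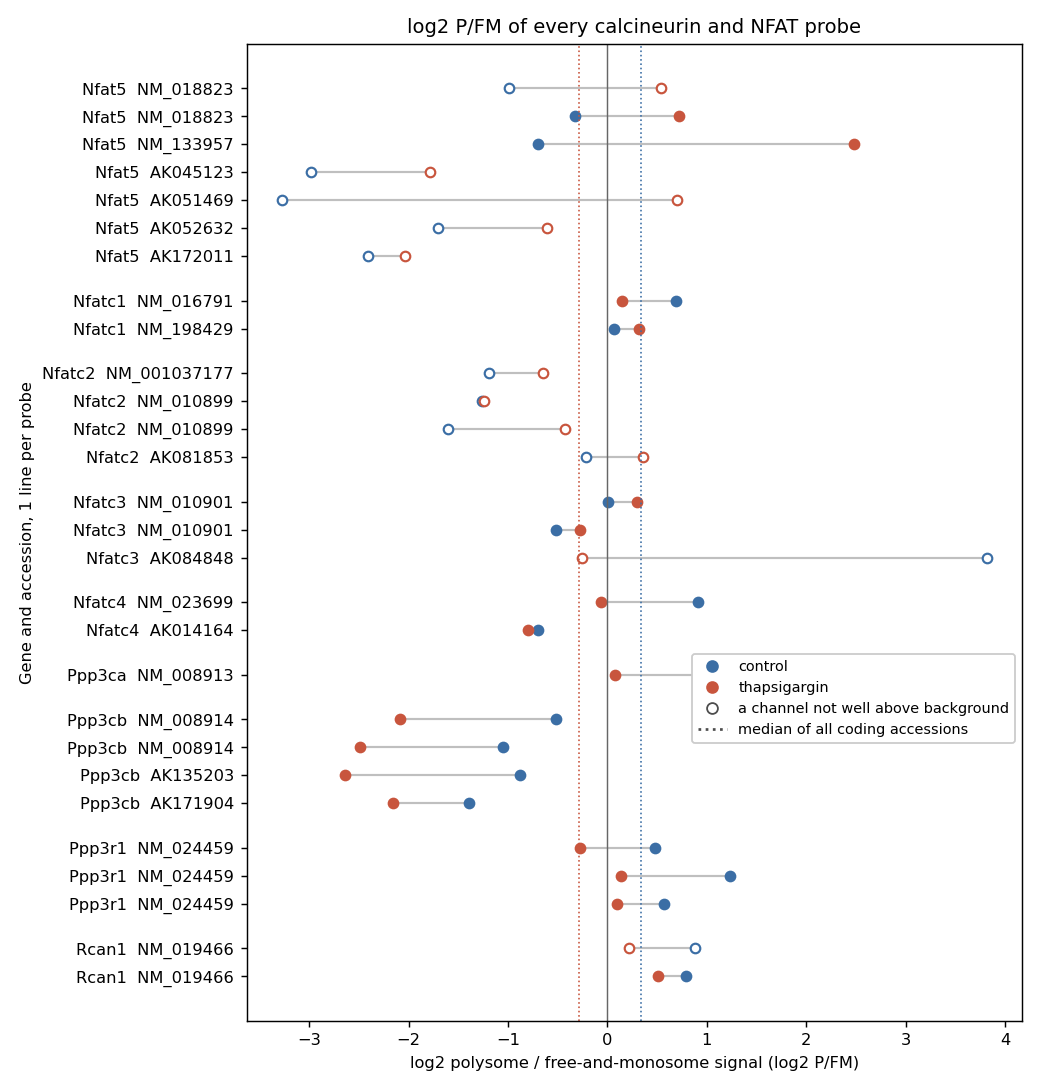
Log2 P/FM (x axis) of each of the 28 probes, 1 line per probe, in control (blue) and stress (red) cells, with open symbols where P or FM was not well above background and dotted lines at the medians of all coding accessions (0.34 and -0.29). The filled Nfat5 points move to the right, from -0.70 to 2.48 for NM_133957, and all 4 Ppp3cb lines move to the left, a direction that spike-in scaling turns.

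Nfat5 was the transcript with the largest change of the 9 genes, and it moved towards polysomes. The study's paper, which used these arrays, already lists NFAT5 among transcription factors with translation induced by stress. The values here are therefore not independent of that report. The probe for NM_133957 gave a P signal of 80.1 in control and 527 in stress, and an FM signal of 130.02 in control and 94.3 in stress. P was thus higher and FM lower in stress, with log2 changes of 2.72 and -0.46, where the median coding accession changed by 0.02 in P and 0.72 in FM. Log2 P/FM went from -0.70 to 2.48, a change of 3.18, which lay 3.90 above the median change of all. Of the 10033 coding accessions only 12 had a larger increase and only 2 a higher log2 P/FM in stress, while in control 8472 had a higher one. A went from 6.67 to 7.80, a change of 1.13, with more signal in P and less in FM.

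The other 2 coding probes of Nfat5 changed in the same direction by less. Their listed positions in the transcript are 1632 and 4722, against 13119 for the probe of NM_133957. Whether position plays a part in the difference was not tested. The probe in the DNA-binding domain, shown above, gave a P signal of 31.3 in control and 55.5 in stress and an FM signal of 39.2 and 33.7, so that log2 P/FM went from -0.33 to 0.72, a change of 1.05. The remaining probe, A_51_P135309, was not well above background in P in control (15.7, against 39.4 in stress) nor in FM in stress (27.1, against 31.1 in control), and its change as processed here was at least 1.54. Together these 2 probes are the accession NM_018823, whose change as processed here was at least 1.29. This bound holds only for the background subtraction used, as the change was 0.81 with normexp and 0.53 without subtraction. The files list both RefSeq accessions for the probe in the DNA-binding domain, so the difference between 3.18 and these smaller values, which was larger than the SD between probes of 0.32, cannot be assigned to 1 isoform or the other. In all 12 alternative processings that could be applied to NM_133957 the change was above 0, from 2.56 to 5.73. The same held in all 10 that could be applied to NM_018823, from 0.53 to 3.84. Part of this was fixed in advance. Where they applied, the filters and the authors' table left both changes as reported, and centring and spike-in scaling each raised all transcripts alike. Relative to the median of all coding accessions the changes were from 2.23 to 4.01 and from 0.48 to 2.26.

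**Figure D2:**
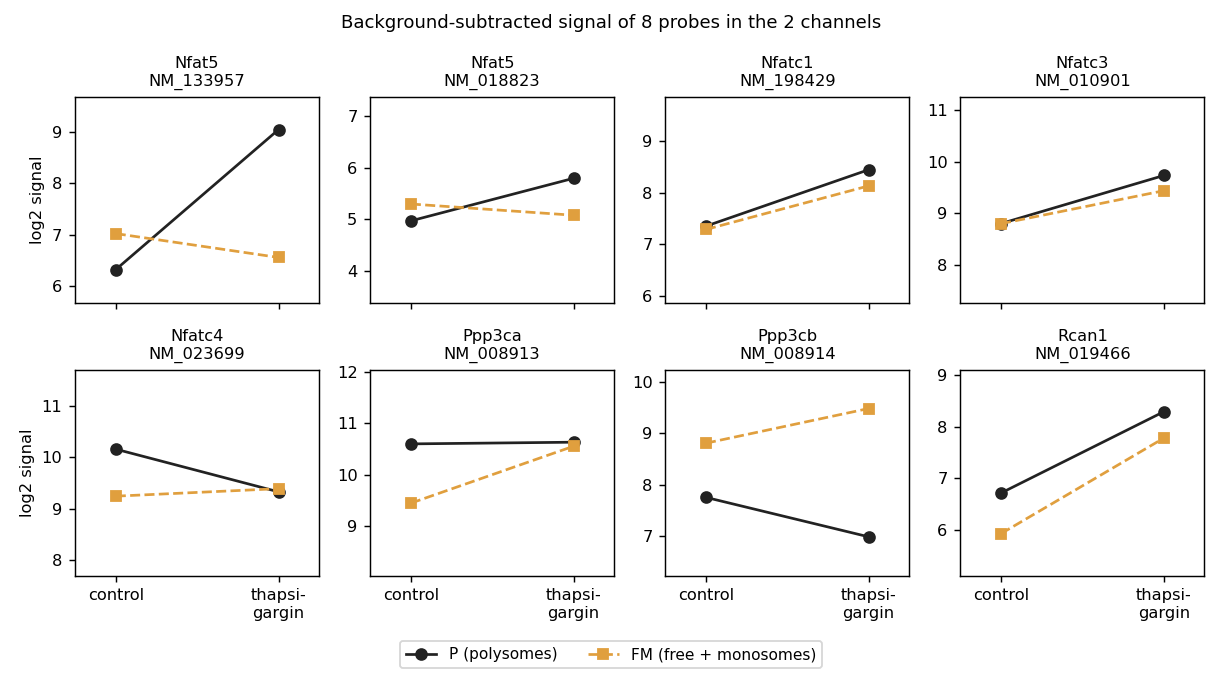
Log2 background-subtracted signal (y axis) in P (black circles) and FM (orange squares) in control and stress cells for 8 probes, all well above background; each panel spans 4 log2 units. The Nfat5 NM_133957 lines cross, with P at 80.1 and 527 before log2, both lines of Rcan1 go up, and in Ppp3ca FM alone goes up.

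Of the 4 calcineurin-regulated factors, Nfatc3 and 1 of the 2 Nfatc1 accessions had slightly higher log2 P/FM in stress, Nfatc4 had a lower one and Nfatc2 could not be measured in P. Nfatc3, a factor expressed in many tissues, had 2 coding probes that were well above background throughout. The first, A_51_P147085, had P signals of 446 in control and 851 in stress and FM signals of 445 and 693, and the second, A_52_P333419, had P signals of 31.64 and 36.05 and FM signals of 45.1 and 43.7. Their changes in log2 P/FM, 0.29 and 0.24, were both above 0, and the accession went from -0.25 to 0.01, a change of 0.26 that was 0.98 above the median of all. Its change was above 0 in all 12 alternatives, at 0.26 to 2.81, though the filters and the authors' table left it as reported. Relative to the median of all coding accessions it was from 0.11 with normexp to 1.14 with the processed signals.

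Nfatc1, the factor best known from heart valve and osteoclast development, was measured by 2 probes listed for different RefSeq transcripts. For NM_198429 the P signal was 163.7 in control and 350.0 in stress and the FM signal 156.5 and 281.6, so both fractions were higher in stress and A changed by 0.97. For NM_016791 the P signal was 76.8 and 72.6 and the FM signal 47.7 and 65.8, with a change in A of 0.19. Log2 P/FM changed by 0.25 in NM_198429 and by -0.55 in NM_016791, so that the 2 probes disagreed in sign and by more than the SD between probes of 0.32. The change of NM_198429 was above 0 in all 12 alternatives (0.20 to 2.80), of which the filters and the authors' table left it as reported. That of NM_016791 turned to 0.42 with normexp background correction, 0.05 with each array centred on its median and 2.004 with scaling to the spike-in probes.

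Nfatc4 was the NFAT transcript with the largest decrease in log2 P/FM. The P signal of NM_023699 was 1141 in control and 642 in stress while FM was 606 and 670. Log2 P/FM accordingly went from 0.91 to -0.06, a change of -0.97, which passed the limit for a stress-sensitive transcript but was 0.26 below the median of all coding accessions and 0.28 above the median of those of like A, from 9 to 11. It was also the single accession of the 10 with lower A in stress, at -0.34 where the median of all was 0.37, and 9204 of the 10033 coding accessions had a larger change in A. The GenBank clone AK014164, also named Nfatc4, had lower signals in both fractions, P of 55.3 and 25.5 and FM of 89.4 and 44.3, with a change in A of -1.06 and in log2 P/FM of -0.10. Scaling to the spike-in probes turned the change of NM_023699 to 1.58. The call as stress-sensitive was also lost with normexp (-0.67), centring (-0.38), the dye-normalized signals and log ratio of the scanner software (-0.09 with each) and loess (-0.05).

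Nfatc2, the factor first described in activated T cells, was not measurable in P. Its 3 coding probes gave P signals between 6.13 and 9.82 in control, and in stress the 2 probes of NM_010899 gave 6.43 and 7.77, and none was well above background in P on either array. In FM the probe in the DNA-binding domain shown above was well above background in control, at 22.4, but not in stress, at 16.7. No change can therefore be given for it, and the data do not show that the transcript was absent.

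The calcineurin subunits among the genes chosen all had lower log2 P/FM in stress as processed here, with a median change of -1.07 over 3 accessions against -0.71 for all coding accessions, and all 3 turned positive with spike-in scaling. Ppp3ca, the alpha form of the catalytic subunit, gave P signals of 1553 in control and 1589 in stress and FM signals of 699 and 1505. P differed little and FM was higher, and log2 P/FM went from 1.15 to 0.08, a change of -1.07. This was 0.36 below the median of all coding accessions but 0.18 above the median of those with A from 9 to 11. The sign was not stable: Ppp3ca changed by 0.25 with the processed signals or the log ratio of the scanner software, by 0.06 after loess and by 1.48 with spike-in scaling. Relative to the median of all coding accessions its change was from -1.11 with normexp to 0.56 with the processed signals.

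Ppp3cb, the beta form of the catalytic subunit, had the lowest log2 P/FM of the 10 accessions in both conditions. Its 2 coding probes gave P signals of 216 and 30.0 in control and of 127 and 24.9 in stress, and FM signals of 448 and 42.8 in control and of 715 and 106 in stress. Both had less signal in P and more in FM after stress, with changes of -1.44 and -1.58 in log2 P/FM. The clones AK135203 and AK171904 changed by -1.76 and -0.77, so that all 4 probes named Ppp3cb, well above background throughout, had lower log2 P/FM. At the accession NM_008914 log2 P/FM went from -0.78 to -2.29, a change of -1.51. This was 0.80 below the median of all coding accessions and 1.29 below that of accessions with A from 5.5 to 7. However, its A is the mean of a bright and a dim probe, at 8.28 and 5.16 in control. Accessions with A from 7 to 9, where the bright probe lies, had a lower median change of -0.67. In stress 9666 of the 10033 coding accessions had a higher log2 P/FM. The change was negative in every alternative except spike-in scaling, which gave 1.04, and relative to the median of all coding accessions it was between -1.18 and -0.68 in all 12.

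Ppp3r1, the calcium-binding subunit, was measured by 3 coding probes, the 2 shown above and one nearer the 3′ end. The probe with the EF-hand loop gave P of 81.0 and 72.5 and FM of 34.4 and 65.8, the junction probe P of 81.1 and 81.3 and FM of 54.7 and 76.3, and the last one P of 174 and 147.0 and FM of 124 and 178. FM was higher in stress with all 3 probes while P differed little or was lower, and log2 P/FM changed by -1.095, -0.48 and -0.76. Their mean of -0.78 fell just short of the limit of -0.8, which it passed with spot medians, at -0.81. As reported, the mean was 0.06 below the median of all coding accessions. The change turned to 0.24 with normexp and 1.77 with spike-in scaling. Relative to the median of all coding accessions it was from -0.47 to 0.05 over the alternatives.

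Rcan1, the inhibitor of calcineurin, differed from the subunits in abundance. Its measured probe, A_52_P617327, gave P of 104.9 in control and 313.5 in stress and FM of 60.7 and 219.7, so the signal was higher in both fractions, with log2 changes of 1.58 in P and 1.86 in FM. The second probe, A_51_P182116, gave P of 11.02 and 27.53 and FM of 5.98 and 23.70 and was well above background only in P in stress. A of the accession NM_019466 changed by 1.69, and by 1.72 with the measured probe alone, and 121 of the 10033 coding accessions had a larger increase. In a bulk culture more cells with a transcript and more RNA per cell cannot be told apart. Log2 P/FM of the measured probe was 0.79 in control and 0.51 in stress, a change of -0.28 that was smaller than the SD between probes of 0.32, and the change of the accession, -0.47 with the dim probe included, turned to 0.64 with normexp, 0.13 with centring and 2.08 with spike-in scaling. Both probes are listed for both RefSeq transcripts of Rcan1, so the long and the short form were not separated.

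The 250 bases before the internal start of Rcan1, from the RefSeq promoter table (GRCm38.p6, chr16:92400079-92400328, minus strand), are shown because this is the start that NFAT proteins are known to bind. Capitals mark GGAAA, the core letters of an NFAT site, or TTTCC, the same letters on the other strand, which do not overlap here.
Rcan1 internal start: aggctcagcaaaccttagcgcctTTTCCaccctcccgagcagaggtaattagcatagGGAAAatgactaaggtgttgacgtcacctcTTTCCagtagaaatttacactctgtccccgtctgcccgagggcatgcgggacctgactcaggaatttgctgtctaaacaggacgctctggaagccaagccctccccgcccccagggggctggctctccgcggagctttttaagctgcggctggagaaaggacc
The window holds 3 such matches, 1 in the given strand and 2 in the other. At least 1 match was found in 55.6% of the 32851 promoter windows of the same length and at least 3 in 6.39%, and the window before the other Rcan1 start holds 0. A match of letters is a description and not a binding site, and no array value here separates the transcripts from the 2 starts.

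**Figure D3:**
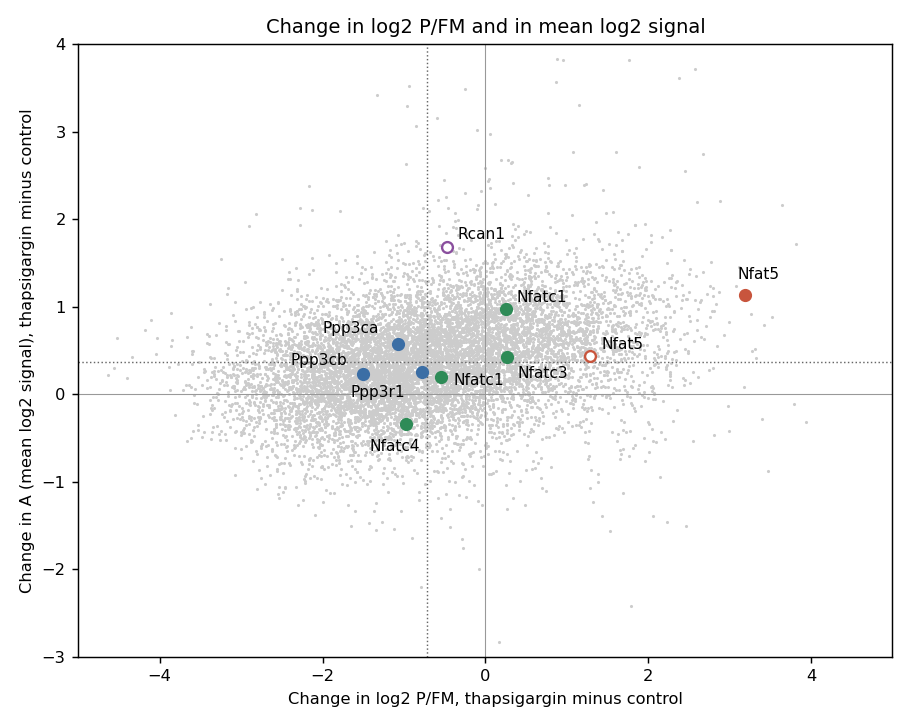
Change in log2 P/FM (x axis) against change in A (y axis), stress minus control, for the 10033 coding accessions (grey, 3 outside the axes) and the 10 of the calcineurin and NFAT genes (Nfat5 red, NFATc green, calcineurin subunits blue, Rcan1 purple, open where a signal was not well above background). Dotted lines mark the medians of -0.71 and 0.37; Nfat5 NM_133957 lies far to the right at 3.18 and Rcan1 near the top at 1.69.

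The 9 GenBank clones for these genes were mostly dim. Only 4 passed the filter on A (Nfat5 AK172011, Nfatc4 AK014164 and both Ppp3cb clones), and all 4 had log2 P/FM below 0 in control, against 71.1% of the 736 clones with the prefix AK that passed. None of the 4 Nfat5 clones was well above background in P on either array (P from 3.9 to 12.8 in control and from 4.2 to 13.2 in stress), whereas FM was well above background in 3 of the 4 in control (41.75 for AK045123, 38.1 for AK051469 and 67.9 for AK172011) and in 1 in stress (54.4 for AK172011). No change in P can be read from these clones. The single Nfatc2 clone and the single Nfatc3 clone were not well above background in any channel.

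The coding genes nearest in pattern were sought for the 8 accessions whose signals were all well above background, by the Euclidean distance over log2 P/FM and A in both conditions, among 8183 coding accessions. Nfat5 NM_133957 had the most distant neighbours, Pou2f1 at 0.75, Tnrc6b at 0.86 and Rapgef2 at 0.95. Pou2f1, an octamer-binding transcription factor, went from -1.08 to 2.44, and the study's paper lists it, as OCT1, together with NFAT5. The closest neighbours were those of Ppp3r1, with Oplah at 0.09, Cyp20a1 at 0.10 and Tmem177 at 0.17. For Ppp3cb they were Aktip, Paip1 and Ppp6r2, at 0.30 to 0.43, and all 3 had log2 P/FM between -2.22 and -2.30 in stress. For Ppp3ca they were Zfp207, Thap7 and Cactin (0.24 to 0.26), for Nfatc3 Sgpp1, Atp13a3 and Dgkq (0.24 to 0.26), for Nfatc4 Dolk, Jmjd6 and Cox19 (0.26 to 0.42), for Nfatc1 NM_016791 Prr12, Gsdmd and Prmt3 (0.25 to 0.29) and for Nfatc1 NM_198429 Zmiz1, Sec24d and Rbm6 (0.24 to 0.26).

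Transcripts of other proteins that bind or regulate calcineurin, listed together with its subunits Ppp3cc and Ppp3r2, mostly had lower log2 P/FM in stress. Ppp3cc, a further catalytic subunit, went from 0.14 to -0.73 with a signal not well above background and is counted as stress-sensitive below. Ppp3r2 did not pass the filter. Of 18 such genes on the array 12 passed the filter, 9 of these were stress-sensitive against 47.0% of all coding accessions, and the median change was -1.197. The largest decreases among those measured in both channels of both arrays were those of Ppia (cyclophilin A, the target of cyclosporin), from 2.75 to -0.33, Cib1, a calcium-binding protein, from 1.80 to -0.83, Calm3, one of the calmodulin genes, from 1.24 to -1.28, and Rcan3, a relative of Rcan1, from 1.39 to -0.48. None of the 12 was stress-inducible, against 8.86% of all coding accessions. A did not change by 1 or more in any of them, against 11.7% of all higher and 0.698% lower. With 12 accessions these counts are too small to be read. The median change of this group was 0.02 with normexp and 1.35 with spike-in scaling, and negative in the other alternatives.

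Catalytic subunits of other serine/threonine phosphatases also mostly had lower log2 P/FM. All 8 passed the filter, 7 were stress-sensitive against 47.0% of all coding accessions, and the median change was -1.84. Ppp1ca, a catalytic subunit of protein phosphatase 1, went from 1.61 to -1.60, Ppp2cb of protein phosphatase 2A from 1.72 to -0.75, Ppp4c from 1.67 to -0.42 and Ppp1cc from 1.195 to -0.705. Ppp1cb was the exception, with -0.68 in both conditions; it was chosen here after its values were seen. The median of the group was negative in every alternative but spike-in scaling, where it was 0.71.

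Among the kinases that return NFAT proteins to the cytoplasm by phosphorylating them, 12 accessions of 9 genes passed, 8 were stress-sensitive against 47.0% of all coding accessions, and the median change was -1.12. Csnk1a1, a casein kinase, went from 0.50 to -1.32, Gsk3a from 0.53 to -1.16, Csnk1d NM_139059 from 1.57 to -0.05 and Dyrk1b NM_001037957 from 0.21 to -0.97. Gsk3b, the close relative of Gsk3a, was the single accession higher by 1 or more, from -0.07 to 1.103 with a change in A of 0.83. It was also the single stress-inducible accession of this group, against 8.86% of all coding accessions. Of 7 other substrates of calcineurin that passed 2 were stress-sensitive, against the same 47.0%, and the median change was -0.58. These 2 were Crtc2, a coactivator of CREB, from 0.32 to -1.22, and the muscle and neuronal factor Mef2d, from 1.18 to -0.30. With spike-in scaling the medians of both groups were positive, at 1.43 and 1.97, and that of the substrates also with normexp (0.29) and centring (0.02).

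Known target genes of the NFATc factors were for the most part not measurable in these cells. Of 12 accessions on the array 4, from 3 genes, passed the filter, and the cytokine genes Il2, Il4, Ifng, Csf2 and Tnf did not. All 4 had A higher by 1 or more, against 11.7% of all coding accessions, and 2 were stress-inducible, against 8.86%. Ptgs2, the inducible cyclooxygenase, went from -1.97 to 1.67 in log2 P/FM with a change in A of 2.16, and Il6, an inflammatory cytokine, from -0.98 to 0.86 with a change in A of 1.94. The other 2 were accessions of Vegfa, with changes in A of 1.46 and 1.04. The median change in log2 P/FM of these 4 was 1.41, and over all accessions of the list it was -0.06 without background subtraction and -0.26 without a filter on A.

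Known Nfat5 target genes had no common direction, and the sign of their median change differed between alternatives, from -0.97 without a filter to 1.95 with spike-in scaling. Of 6 accessions that passed, 3 were stress-sensitive, a share close to the 47.0% of all coding accessions, and 1 was stress-inducible, against 8.86%, and the median change was -0.60. The study's paper also names COX2 (Ptgs2) as regulated by NFAT5. It is given above with the NFATc targets and is not among these 6. Akr1b3, the aldose reductase that makes sorbitol, went from 2.13 to -0.09. In contrast Slc5a3, which imports myo-inositol, changed as processed here by at least 2.61 and Slc6a6, which imports taurine, by at least 1.64, in both cases because a signal was not well above background, and both were chosen here after their values were seen. Their changes in A were 0.19 and 0.25, below the median of all of 0.37.

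Members of the Rel family, which shares the DNA-binding domain with the NFAT proteins, had lower log2 P/FM in stress as processed here, where they could be measured. Of 5 listed genes 4 were on the array. Rel itself was too dim to pass, at 0.21 in control and 0.47 in stress. All 3 accessions that passed were stress-sensitive, against 47.0% of all coding accessions, Relb from 1.69 to -0.43, Rela from 1.58 to -0.09 and Nfkb2 from 1.09 to -0.08. Their median change, -1.68, was 0.87 with spike-in scaling and negative in the other alternatives. A was higher in Relb by 2.11 and in Nfkb2 by 1.65. In Relb the signal was higher in both fractions, by 1.04 in log2 P and 3.17 in log2 FM, whereas in Nfat5 NM_133957 it was higher in P and lower in FM.

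**Figure D4:**
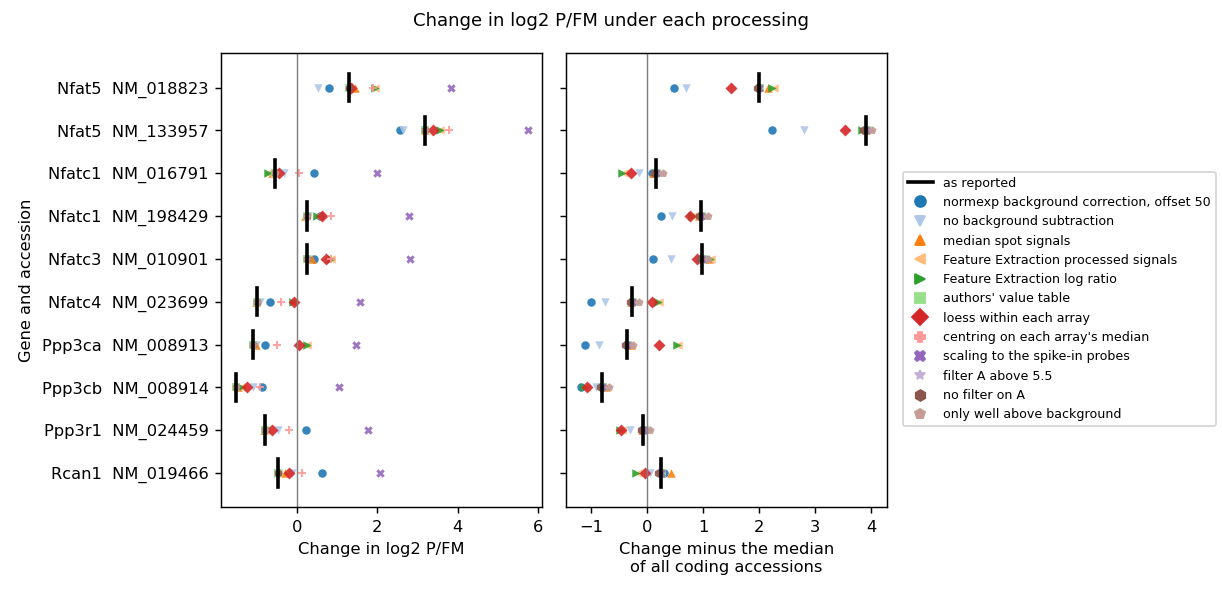
Change in log2 P/FM (left) and the same minus the median change of all coding accessions (right) for the 10 accessions, as reported (black bars) and under each of 12 alternatives (symbols; fewer where an accession did not pass a filter). Spike-in scaling (purple crosses) moves all values in the left panel to the right and none in the right panel, where Nfat5 NM_133957 stays between 2.23 and 4.01 and Ppp3cb between -1.18 and -0.68.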

How the data were processed

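The members and gene lists were chosen with earlier results of these data known. Per the file headers, spots were extracted by the authors with Agilent Feature Extraction 10.7.1.1, which gave spot and local background intensity, dye-normalized processed intensity, a log10 ratio of Cy5 over Cy3 and flags. Probe positions are on mm9. The table deposited by the authors holds log2 P/FM after background correction, without normalization. Of its values matched to an accession, 98.9% were within 0.001 of those computed here, on both arrays.

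From the mean intensity of each spot the local background (median) was taken away, and values below 0.5 became 0.5. Outlier-flagged spots, 295 of 43379, were left out. Spots were averaged to probes and probes to accessions, and the values were not normalized. The study's methods give the background correction, the averaging and the filter on A, and name no normalization. A signal not well above background has only a bound, the higher of itself and the lowest signal well above background on that array (P 13.3 and 11.1, FM 1.4 and 11.5, in control and stress). Such bounds hold only for the background subtraction used here. RefSeq symbols matched 18423 of 18743 coding accessions. All 9 genes were named, with the 3 nearest genes of each measured accession and, from each list, at most 4 genes per direction that changed by 1 or more and were measured in all channels.

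Alternatives were normexp (offset 50), signals without subtraction, spot medians, processed signals, the log ratio, the authors' table, loess, centring, spike-in scaling, A above 5.5, no filter on A, and measured signals only (R 4.3.3, limma 3.58.1, Python 3.11.15). The number of arrays limits the precision.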

Additional observations from a re-analysis of the deposited data

How the results depend on the processing

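The sign of the change differed between alternatives in 6 of the 10 accessions, and in 4 of them with spike-in scaling set aside. The median change of all coding accessions was -0.71 as reported, 0.33 with normexp, -0.17 without background subtraction, -0.30 with dye-normalized signals, -0.28 with the software's log ratio, -0.15 with loess, -0.12 with centring and 1.84 with spike-in scaling. Nfat5, Nfatc3 and Nfatc1 NM_198429 had a positive change in every alternative that could be applied to them. Centring and spike-in scaling each raised the change of every accession alike, so they could not turn a positive one. Of the 116 values of single accessions compared with the reported ones, 71 moved by less than the SD between probes, 31 by more, and 14 turned. The 71 include the values under the filters and the authors' table, which left each accession as reported. The processed signals and the log ratio gave the same value for each accession.

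The medians and counts below are over the accessions that passed under each setting. These were 12 with normexp, without background subtraction and without a filter, and 11 with dye-normalized signals, so that there they include Nfatc2 accessions that were not measurable in P and cannot be set directly against the reported 10. The median change of the accessions, -0.51 as reported, was 0.44 with normexp, -0.060 without background subtraction, 0.25 with dye-normalized signals, 0.082 with the software's log ratio, 0.0040 with loess, 0.087 with centring, 2.04 with spike-in scaling and -0.11 without a filter on A. The median change of the NFATc accessions, -0.15 as reported, was 0.44 with normexp, 0.50 with dye-normalized signals, 0.21 with the software's log ratio, 0.28 with loess, 0.45 with centring, 2.40 with spike-in scaling and 0.26 without a filter. The median change of the calcineurin subunits, -1.07 as reported, was -0.75 with dye-normalized signals and the software's log ratio, -0.61 with loess, -0.48 with centring and 1.48 with spike-in scaling.

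The median log2 P/FM of the accessions in control, 0.38 as reported, was -0.39 with normexp, -0.13 without background subtraction, -0.0009 with dye-normalized signals, 0.035 with loess, 0.065 with centring, 0.78 with spike-in scaling and -0.10 without a filter. In stress, 0.11 as reported, it was 0.45 with dye-normalized signals, 0.48 with the software's log ratio, 0.41 with loess, 0.39 with centring and 3.06 with spike-in scaling. Lower log2 P/FM in stress was seen in 3 of 12 accessions with normexp and 0 of 10 with spike-in scaling, against 6 of 10. Stress-sensitive was 1 of 12 with normexp, and 1, Ppp3cb in each case, also with dye-normalized signals, the software's log ratio, loess or centring and 0 with spike-in scaling, against 3. With spot medians the number was 4, as Ppp3r1 was then at -0.81. Stress-resistant were 1 with dye-normalized signals or the software's log ratio and 5 with spike-in scaling, against 0. Stress-inducible was 1 with normexp, without background subtraction, with A above 5.5 or with measured signals only, against 2.

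Ppp3ca turned to 0.25 with dye-normalized signals and the software's log ratio, 0.062 with loess and 1.48 with spike-in scaling. Spike-in scaling also turned Ppp3cb to 1.04, Nfatc4 to 1.58, Nfatc1 NM_016791 to 2.004, Rcan1 to 2.08 and Ppp3r1 to 1.77. Normexp turned Nfatc1 NM_016791 to 0.42, Rcan1 to 0.64 and Ppp3r1 to 0.24, and centring turned Nfatc1 NM_016791 to 0.049 and Rcan1 to 0.13. Under A above 5.5 and with measured signals only, 8 of the 10 accessions remained and the lower Nfat5 accession and Rcan1 were not among them. The cause of these shifts was not tested. No paired analysis was possible because each condition had a single array, so the groups shared fewer than 2 replicate numbers. Dim probes limit Nfatc2, Rcan1 A_51_P182116 and Nfat5 A_51_P135309.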
